A study of Tulipa gesneriana with 15 samples.

Results

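The 100 genes described here were chosen for a high level at every stage in the garden tulip (Tulipa gesneriana), measured in flowers. They come from 76388 genes listed in the deposited table. They were chosen by their FPKM values (fragments per unit of gene length and of library size): the mean of each of the 5 stages was taken, the lowest of the 5 means was used as the score, and the 100 genes with the highest score were kept. All flowers were wild type, and RNA was sequenced from 3 libraries per stage: buds, partial blooming, the full bloom that follows it (full blooming), and senescence in an early and a late stage. The labels give flower as the tissue and name no organ, cultivar or plant behind a library, nor the time between stages. The scores ran from 4940.3 FPKM to 328 FPKM, with a median of 455. The members just inside the threshold scored 329.9 and 328 FPKM, and the genes just outside it 326 and 324 FPKM. Members are identified below by their place in the order of the score, and 8 of them also by their identifier.

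A tulip flower opens by expansion of the cells of its tepals, remains in bloom for a time, and then senesces, a controlled dismantling in which proteins, lipids and nucleic acids are broken down and nutrients are moved out before the tepals wilt or fall. In plant tissues generally, the messages present in the largest amounts tend to encode parts of the protein synthesis machinery, the cytoskeleton, the cell wall and proteins made under stress. Which of these the 100 tulip genes encode is not known here, because the table pairs no identifier with a name, a position or a function, and no role is given to any of them. In such bulk RNA, fewer cells of a type and less RNA per cell cannot be told apart.

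The rule sets a floor and does not pick the leading genes of any one stage. Of the 100 members, 46 were among the 100 most abundant genes of the bud stage. The same held for 52 members at partial and 50 at full blooming, and for 43 at early and 48 at late senescence. The members in places 1 to 21 were among the 100 most abundant at all 5 stages, and 27 members were so at none. The lowest position of a member at any stage was 408 of 76388, in late senescence. A total of 229 genes were among the 100 most abundant of at least 1 stage. Single libraries reached below the floor of the stage means: 21 members were under 300 FPKM in at least 1 library, the lowest value being 128 FPKM.

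Libraries differed in their summed FPKM, from 861035 to 1094997, and read counts are not given, so the depth behind each value is unknown. Full blooming replicate 3 differed most from its stage by the number of members off by 1 log2 unit or more, which was 9. Over the 100 members it lay a median of 0.32 log2 units from the mean of the other full blooming libraries and 0.22 from the mean of the partial blooming libraries, and 60 members lay nearer to the latter. Late senescence replicate 2 had the largest median distance of a library from the others of its stage, at 0.38 log2 units, with members lower by a median of 0.29. Bud replicate 2 lay 0.21 from the other buds and 0.63 from late senescence, and 20 members lay nearer to late senescence. Full blooming replicate 3 and bud replicate 2 alone were set against another stage, and over the members only. The mean of the own stage left out the library itself, so it held fewer libraries than that of the other stage and was noisier. The median coefficient of variation of a member within a stage was lowest in early senescence (8.75%) and partial blooming (8.93%), and was 13.9% in buds, 16.6% in late senescence and 18.7% in full blooming.

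The 100 members are 0.131% of the genes listed and held between 13.5% and 18.5% of the summed FPKM of a library. Their share was 13.48%, 14.03% and 14.68% in the 3 bud libraries, with a mean of 14.1% ± 0.603 (SD, n = 3). It was 15.03%, 16.2% and 15.6% in partial blooming, and full blooming had 17.3%, 17.97% and 14.99%. Early senescence stood at 16.6%, 16.9% and 16.1%, and late senescence at 18.5%, 15.5% and 17.6%. The bud libraries held the lowest shares, all under those of every other library, while the later stages overlapped one another. These shares follow from values that chose the members and were not tested.

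**Figure D1:**
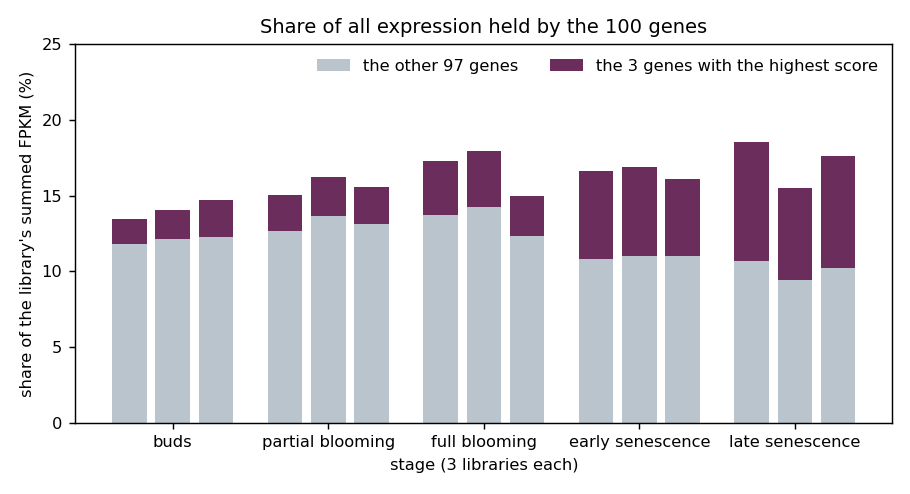
Share of each library's summed FPKM held by the 100 genes, in percent, for the 3 libraries of each stage. The 3 genes with the highest score (dark) went from 2.02% in buds to 7.12% in late senescence on average, while the other 97 (grey) went from 12.05% to 10.1%.

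The 3 members with the highest score took a growing part of it. Together they had 2.02% ± 0.384 (SD, n = 3) at the bud stage, 2.47% ± 0.121 at partial and 3.30% ± 0.558 at full blooming, then 5.57% ± 0.462 and 7.12% ± 0.948 at early and late senescence. The other 97 members had 12.05% ± 0.236 at the bud stage, 13.4% ± 0.999 at full blooming and 10.1% ± 0.612 at late senescence. FPKM is relative to each library, so these shares are not amounts of RNA per flower.

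F01.PB58139, in place 1, was the only one of the 3 that went down. It was at 8662, 10326 and 15469 FPKM in buds, at 9514, 10902 and 9378 in partial blooming and at 12902, 12322 and 6261 in full blooming. Early senescence had 6340.3, 6053 and 6762 FPKM, and late senescence 6159, 3505 and 5157. The libraries of full blooming spread from the level of early senescence to that of the buds, and no single step passed the test described below. From buds to late senescence its level fell by 1.21 ± 0.30 (SE) on the log2(FPKM + 1) scale (limma adjusted p of 0.00528), with all 3 late senescence libraries under all 3 buds.

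F01.PB75, in place 3, rose at each of the first 3 steps and became the most abundant member. It was at 3995, 4079 and 2907 FPKM in buds, at 6147, 7818 and 7742 in partial blooming and at 13104, 14554 and 12873 in full blooming. It reached 34858, 33282 and 27769.7 FPKM in early senescence and 50078, 33959 and 46338 in late senescence. Libraries of neighbouring stages did not overlap until the last step, where late senescence replicate 2 lay within the range of early senescence and the change of 0.43 log2 units did not pass (limma adjusted p of 0.124). The gain from buds to late senescence was 3.57 ± 0.20 (SE) on the log2 scale (limma adjusted p of 3.10e-08), a ratio of 11.9 between the means. On its own this gene made up 0.39% ± 0.0674 (SD, n = 3) of all FPKM in bud libraries and 4.12% ± 0.675 in those of late senescence.

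F01.PB1044, in place 2, was called at the last 2 steps. It was at 2792, 4300.2 and 4331 FPKM in buds, at 4676, 4580.1 and 4727 in partial blooming and at 5810.5, 7641 and 4923 in full blooming. Early senescence had 12878, 14317 and 10744 FPKM and late senescence 30139, 24099 and 25796. Its increase was 1.06 ± 0.21 (SE) on the log2 scale from full blooming to early senescence (limma adjusted p of 0.00374) and 1.08 ± 0.21 from early to late senescence (limma adjusted p of 0.00293). The 2 steps before these did not pass, at 0.32 and 0.37 (limma adjusted p of 0.341 and 0.498), although their libraries did not overlap either.

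**Figure D2:**
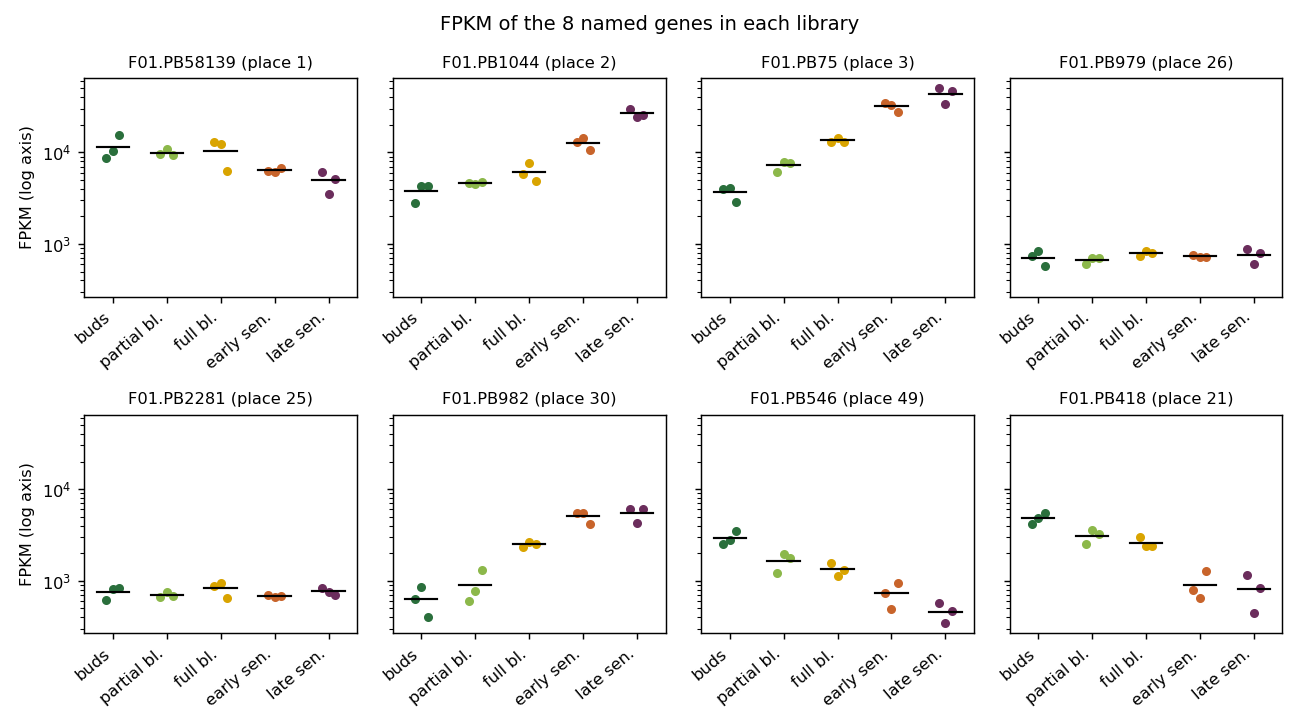
FPKM of the 8 genes named by identifier, on a log axis, with 1 point per library and a line at each stage mean. F01.PB75, F01.PB1044 and F01.PB982 are higher in late senescence than in buds, F01.PB546, F01.PB418 and F01.PB58139 are lower, and F01.PB979 and F01.PB2281 stay between 573 and 935 FPKM in every library.

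Most members varied with stage. Differences were tested on log2(FPKM + 1) with limma over all 47326 genes that had at least 1 FPKM in at least 3 libraries, and all 100 members were among these. Calls were made where the p-value, adjusted over all genes tested by the Benjamini-Hochberg method, was under 0.05. Limma's F test over the 5 stages called 78 members, against 58.0% of all genes tested. The same libraries chose the members, and the rule bounds how far a member can be low at any stage, although it used no difference between stages, so the counts of calls below describe the members and are read no further. The median span between the highest and the lowest stage mean was 1.01 log2 units among the members and also 1.01 among all genes tested, while the median residual spread within stages was 0.23 among the members and 0.30 among all genes tested. This scale understates the changes and spread of genes near 1 FPKM, which all genes tested include and the members do not, so these medians are not strictly alike.

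Members were cut into classes by span. The quartiles of the span were 0.66 and 1.89 log2 units among the members. Among all genes tested they were 0.63 and 1.68, with the same limit as the medians above. In 15 members the span was under 0.5 log2 units, and none of these passed the F test or was called in any of the 5 comparisons. A span of 0.5 to 1 was found in 34 members, 28 of them past the F test. All 27 members with a span of 1 to 2 passed, and so did 23 of the 24 with a span of 2 or more. The span and the F test use the same stage means, so passing more often at wider spans is largely built in. The classes were counted for members only. At 9 members the span was 3 or more, and in 7 the highest stage mean was at least 10 times the lowest. High spans were found along the whole range of scores, from 3.57 in place 3 to 4.05 in place 99.

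**Figure D3:**
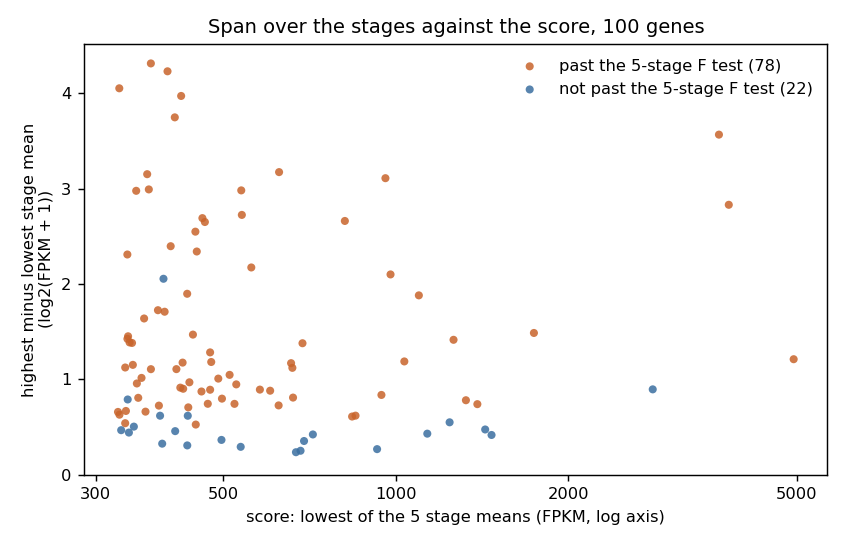
Span between the highest and the lowest stage mean on the log2(FPKM + 1) scale against the score in FPKM (log axis), 1 point per gene. The 22 genes that did not pass the 5-stage F test (blue) lie at low spans, apart from 1 at 2.06 log2 units.

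The 2 members with the smallest span were F01.PB979 and F01.PB2281. F01.PB979 was at 732, 829.9 and 573 FPKM in buds, at 605, 698 and 708 in partial blooming and at 739.7, 831 and 796 in full blooming. It was at 766, 727 and 729 FPKM in early senescence and at 890.5, 609.8 and 793 in late senescence. Its stage means differed by a ratio of at most 1.177, within the range of the 3 bud libraries. The change from buds to late senescence was 0.10 on the log2 scale, with a 95% confidence interval from -0.25 to 0.46 (limma adjusted p of 0.647).

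F01.PB2281 was at 623, 809.9 and 834 FPKM in buds, at 665, 763 and 684 in partial blooming and at 884, 935 and 651 in full blooming. Early senescence had 701, 668 and 679.7 FPKM, and late senescence 839, 763 and 703. Its change from buds to late senescence was 0.03 on the log2 scale, with a 95% confidence interval from -0.31 to 0.38 (limma adjusted p of 0.892). These intervals reach 0.46 and 0.38 log2 units, so the tests do not show a constant level. Over all 15 steady members, stage means ranged from 332 to 1987 FPKM, and the ratio of the highest to the lowest stage mean from 1.177 to 1.42.

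Grouped by the stage of their highest mean, 29 members were highest in late senescence, 28 in full blooming and 23 in buds. Partial blooming and early senescence were the highest stage of 10 members each. Among all genes tested these stages held, in the same order, 32.3%, 8.60%, 34.1%, 11.1% and 13.9%. Of the 28 members highest in full blooming, 15 passed the F test, against 58.0% of all genes tested, and 10 of the 15 steady members were among the 28. Without full blooming replicate 2, 16 members were highest in full blooming. With median-ratio scaling 37 members were highest there, 18 in early senescence and 20 in late senescence, and with quantile normalization these were 20, 16 and 22, with 19 in partial blooming. Of the late senescence group, 27 of 29 passed the F test, and of the bud group 20 of 23. These counts by group were made for members only. No share stands beside them over the genes tested that were highest at the same stage.

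**Figure D4:**
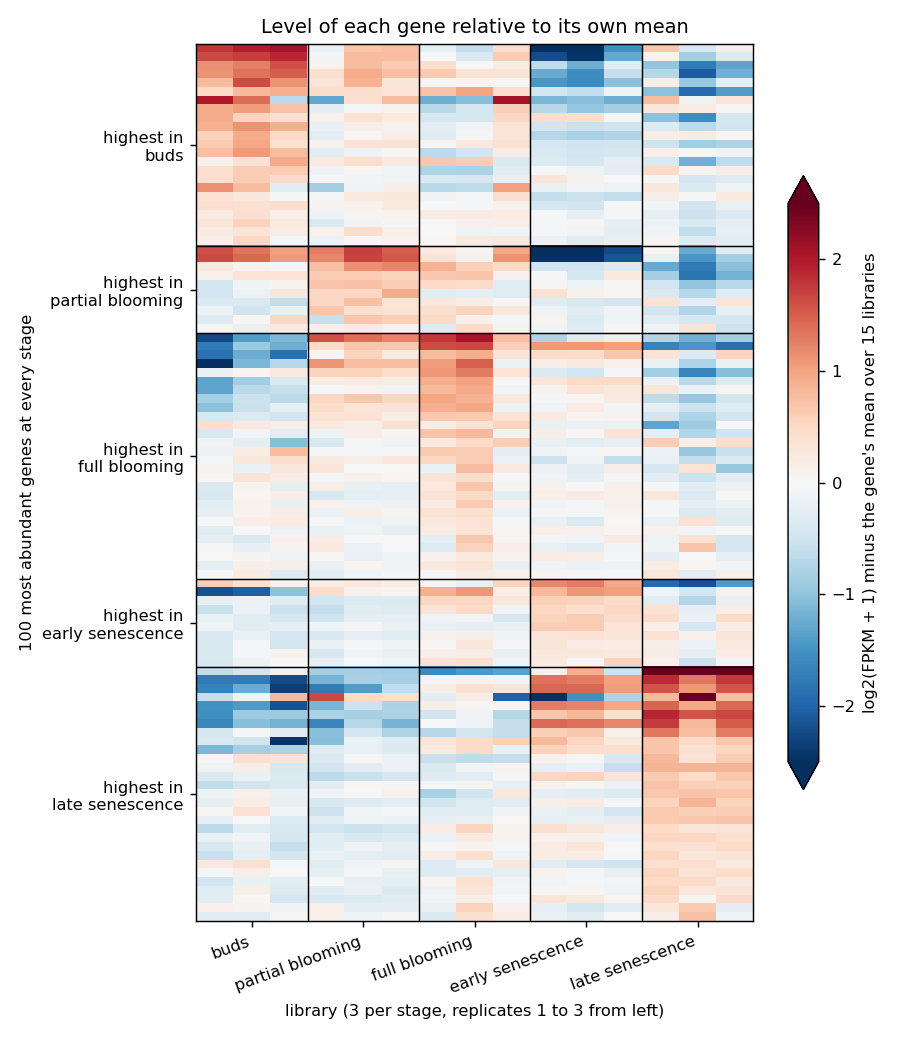
Level of the 100 genes in 15 libraries as log2(FPKM + 1) minus each gene's own mean, with genes in rows, grouped by the stage of their highest mean and sorted by span, and libraries in columns by stage. Colours end at 2.5 log2 units, which 10 values exceed; within full blooming, replicate 3 (its right column) is paler than the others in the full blooming group.

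As a share of all FPKM, the mean of the late senescence group was higher at each stage than at the one before. It was 2.65% ± 0.154 (SD, n = 3) at the bud stage, 3.39% ± 0.0441 at partial and 4.50% ± 0.344 at full blooming, then 8.16% ± 0.815 at early and 11.1% ± 0.721 at late senescence. The bud group had 5.98% ± 0.362 at its own stage and 2.22% ± 0.390 at late senescence. The full blooming group had 5.53% ± 1.51 at its own stage, a wide spread, against 2.65% ± 0.421 at the bud stage and 2.31% ± 0.195 at late senescence. These groups were formed by the same means, so the shares show only their size. The stage means of 9 members went up at all 4 steps and those of 4 went down at all 4, against 3.17% and 3.75% of all genes tested.

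The 24 members with a span of at least 2 log2 units were spread over 11 pairs of highest and lowest stage, 5 of them with a single member. Buds and late senescence were each the highest stage of 7, full blooming of 5, partial blooming of 3 and early senescence of 2. In 5 the lowest stage was buds and the highest late senescence. The opposite course, highest in buds and lowest in late senescence, was taken by 3. A further 4 had their highest mean in buds and their lowest in early senescence, and 2 were highest in partial blooming and lowest in early senescence. Full blooming was the highest stage of 3 with buds lowest and of 2 with late senescence lowest.

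**Figure D5:**
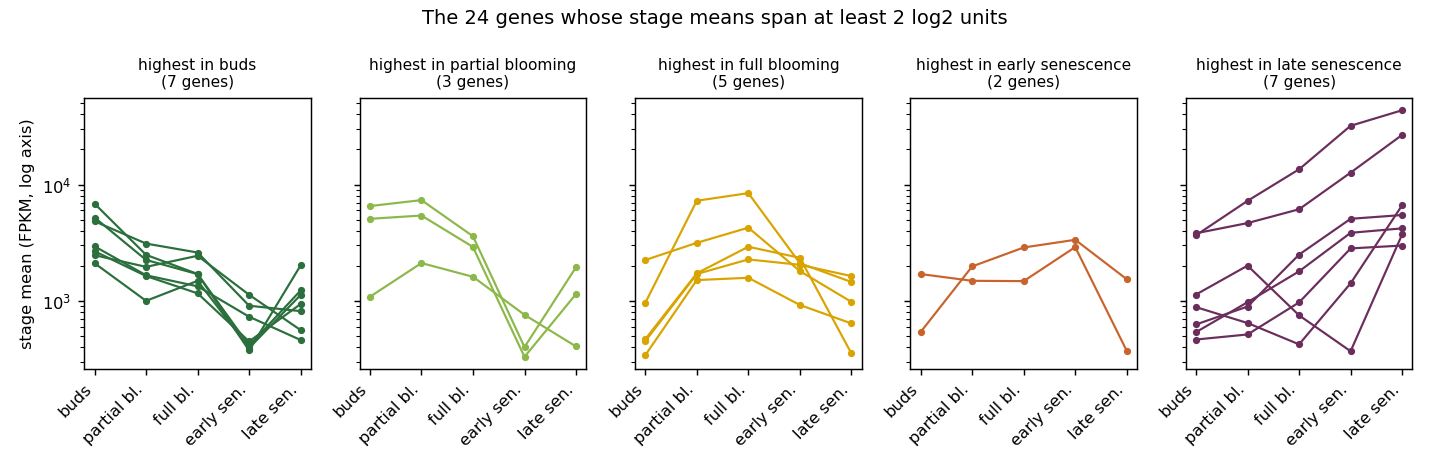
Stage means (FPKM, log axis) of the 24 genes with a span of at least 2 log2 units, 1 line per gene, in panels by the stage of the highest mean. In the first 2 panels several genes reach their lowest mean in early senescence, and are higher again in late senescence.

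The 3 widest spans belonged to members with their lowest mean in early senescence, in places 76, 68 and 99. The member in place 76 was at 6100.4, 6917 and 7527 FPKM in buds, at 1580.0, 2879 and 2996 in partial blooming and at 1521, 1167 and 2418 in full blooming. It was at 279, 236 and 608 FPKM in early senescence and at 2816, 1312 and 1937 in late senescence. The stages on either side of early senescence lay above its 3 libraries, without overlap. The member in place 66 took much the same course at like levels, from 5204 ± 451 FPKM (SD, n = 3) in buds to 412 ± 193 in early senescence and 1229 ± 387 in late senescence.

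In place 68, the level was 7848, 6492 and 5239 FPKM in buds, 6272, 8422 and 7334 in partial blooming and 3048, 2688 and 5040.3 in full blooming. Early senescence had 358, 298 and 545 FPKM, and late senescence 2679, 1071 and 2094. The member in place 99 moved with it, from 5413 ± 921 FPKM (SD, n = 3) in partial blooming to 329.9 ± 92.0 in early senescence and 1145 ± 496 in late senescence. In both, full blooming replicate 3 was the highest library of its stage and early senescence replicate 3 the highest of its own.

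Some pairs of these wide members varied less in their ratio over the 15 libraries than most pairs. The ratio of the member in place 68 to that in place 99 lay between 1.11 and 1.97, with a median of 1.30 and an SD of 0.20 log2 units, the smallest among the 276 pairs of wide members, whose median SD was 1.72. The ratio of F01.PB75 to the member in place 36 lay between 6.36 and 10.7. That of F01.PB418 to F01.PB546 lay between 1.08 and 2.11, and that of the member in place 66 to that in place 76 between 0.577 and 1.17. These pairs were picked after their values were seen, and whether any pair comes from 1 gene is not stated in the table.

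One wide member varied more between the libraries of a stage than between stages. In place 70, the level was 3476, 2294 and 551 FPKM in buds, 354, 1144 and 1503 in partial blooming and 374, 414 and 3671 in full blooming. It was 390.4, 419 and 373 FPKM in early senescence and 1484, 805 and 1086 in late senescence. Full blooming replicate 3 alone was at the level of the highest bud library. With a span of 2.06 log2 units it did not pass the F test (limma adjusted p of 0.291).

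Across the whole course, from buds to late senescence, 32 members were higher and 28 lower in late senescence by limma's test, against 22.0% and 20.4% of all genes tested. The median change was 0.85 log2 units among the higher members and -1.30 among the lower ones, and changes of at least 1 were found in 12 and 17. In 30 of the 32 and 27 of the 28, the libraries of the 2 stages did not overlap. Here and at the steps below, overlap was counted for members only. No share over all genes tested stands beside it, and a call already favours libraries that do not overlap. The remaining 40 members were not called. With quantile normalization 27 members were higher and 33 lower, beside 9807 and 11674 of 47326 genes tested, so which list was larger depends on the scaling.

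Besides F01.PB75, the largest rise among non-overlapping members was that of F01.PB982. It was at 628, 854 and 398 FPKM in buds, at 594, 767 and 1319 in partial blooming and at 2307, 2659 and 2527 in full blooming. Early senescence had 5499, 5520.4 and 4198 FPKM and late senescence 6049, 4295 and 6053. Buds and partial blooming overlapped, and so did early and late senescence, while the steps between them passed, at 1.56 and 1.01 log2 units (limma adjusted p of 0.0198 and 0.0388). From buds to late senescence it gained 3.17 ± 0.30 (SE) on the log2 scale (limma adjusted p of 3.28e-06). From buds to late senescence, the members in places 36 and 48 went from 538 ± 143 to 4197 ± 768 FPKM (SD, n = 3) and from 465 ± 89.7 to 2988 ± 908 FPKM.

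F01.PB546 and F01.PB418 fell the most. F01.PB546 was at 2543, 2762 and 3518 FPKM in buds, at 1212, 1978 and 1788 in partial blooming and at 1555, 1141 and 1304 in full blooming. It was at 741, 493 and 957 FPKM in early senescence and at 578, 342 and 462 in late senescence. All buds lay above all later libraries, and from buds to late senescence it fell by 2.69 ± 0.27 (SE) on the log2 scale (limma adjusted p of 5.15e-06).

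F01.PB418 was at 4151, 4869 and 5467 FPKM in buds, at 2513, 3608 and 3198 in partial blooming and at 3015, 2401 and 2391 in full blooming. It was at 800.2, 653 and 1271 FPKM in early senescence and at 1169, 448 and 831 in late senescence. The last 2 stages overlapped, and both lay under all earlier libraries. Its level fell by 2.66 ± 0.32 (SE) from buds to late senescence (limma adjusted p of 2.23e-05), with 1.57 ± 0.32 of the drop between full blooming and early senescence (limma adjusted p of 0.00408).

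On opening, from buds to partial blooming, 19 members rose and 9 fell, against 6.62% and 7.69% of all genes tested. Members that rose had a median change of 0.97 log2 units and those that fell one of -0.95, and in all 28 the libraries of the 2 stages did not overlap. The largest rise was in place 16, which was at 575, 1046 and 1259.6 FPKM in buds and at 8302, 7073 and 6385 in partial blooming, a gain of 2.98 ± 0.34 (SE; limma adjusted p of 7.45e-05). It stayed high in full blooming, at 9285, 11387 and 4618 FPKM, and was at 1629, 2230.2 and 2457 in early senescence. The largest fall was that of place 76, by 1.51 ± 0.39 (SE; limma adjusted p of 0.0226), which did not pass without bud replicate 2 or 3, without partial blooming replicate 1 or with quantile normalization (limma adjusted p from 0.0525 to 0.105). The members that rose numbered 12 when bud replicate 1 or partial blooming replicate 2 was left out, beside 2384 and 2201 of all genes tested. Those that fell numbered 2 when bud replicate 2 or partial blooming replicate 1 was left out, beside 1583 and 1575. With quantile normalization 20 rose and 4 fell, beside 3962 and 3200 of 47326 genes tested. Without a filter on low genes 5 fell, beside 3358 of 73150.

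From partial to full blooming, 4 members rose and 1 fell, against 0.98% and 0.699% of all genes tested. The largest rise was that of F01.PB982, at 1.56 ± 0.30 (SE) on the log2 scale (limma adjusted p of 0.0198), and F01.PB75 was also among the 4. The member that fell, in place 64, was at 809, 806 and 1077 FPKM in partial blooming and at 472, 482 and 459.8 in full blooming. Its level fell by 0.91 ± 0.19 (SE; limma adjusted p of 0.0322), and it was at 738, 609 and 583 FPKM in early senescence. F01.PB982 did not pass under 7 of the alternatives (limma adjusted p from 0.0505 to 0.178), nor place 64 under 10 (limma adjusted p from 0.0515 to 0.15). These calls hang on single libraries: without full blooming replicate 3, 10 members rose and 5 fell, beside 1120 and 1746 of 46814 genes tested. Without partial blooming replicate 1 or full blooming replicate 1 or 2, none rose and none fell. Over all genes tested, at most 246 rose and at most 183 fell in these fits. Without partial blooming replicates 2 and 3 in turn, 1 and 2 rose, beside 321 and 255 of all genes tested, and 0 fell, beside 174 and 153. Without early senescence replicate 2, which enters through the shared spread, 0 fell, beside 276. At an unadjusted limma p under 0.05, 27 members passed, a count that was not taken over all genes tested. In a fit to these 6 libraries no member was called, while 42 rose and 33 fell of 47326 genes tested. With the replicate number as a block 2 members rose and 0 fell, beside 353 and 258 of 47326. Without a filter 1 rose and 0 fell, beside 398 and 296 of 73150. With median-ratio scaling 4 rose and 0 fell, beside 465 and 240 of 47326. Library quality weights gave 24 and 9, beside 2600 and 4495 of 47326.

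At the start of senescence, the step from full blooming, 13 members rose and 18 fell, against 8.78% and 6.85% of all genes tested. The 13 had a median change of 1.01 and the 18 one of -1.09, with no overlap of the libraries in all of the 13 and in 17 of the 18, and over all 100 members it was -0.20 log2 units, against -0.08 over all genes tested. Both medians moved with single libraries: that of the members was -0.09 without full blooming replicate 2, and that of all genes tested was 0.02 without full blooming replicate 3. Library quality weights put the latter at 0.01. The largest fall was in place 68, by 3.15 ± 0.34 (SE; limma adjusted p of 3.86e-05), from 3592 ± 1267 to 400.4 ± 129 FPKM (SD, n = 3). The largest rise was in place 62, which was at 384, 425 and 459 FPKM in full blooming and at 1270.0, 2169 and 807 in early senescence, a gain of 1.63 ± 0.27 (SE; limma adjusted p of 0.000884). In a fit to these 6 libraries, 6 members rose and 11 fell, beside 3073 and 2010 of 47326 genes tested. Without a filter 8 members rose, beside 4172 of 73150, and with library quality weights 37 fell, beside 5531 of 47326.

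Between early and late senescence 24 members rose and 16 fell, against 19.2% and 9.9% of all genes tested. The 24 had a median change of 0.90 log2 units and the 16 one of -0.92, without overlap of the libraries in all 40. Which list was larger depends on the scaling. With median-ratio scaling 15 rose and 21 fell, beside 6725 and 6959 of 47326 genes tested. With quantile normalization 21 rose and 22 fell, beside 5859 and 8636 of 47326. The median change of all genes tested went from 0.19 as deposited to 0.02 and -0.07 under these 2 scalings. Without late senescence replicate 2, which was low over most members, 9 members fell, beside 3250 of 46570 genes tested.

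The largest fall of this step was in place 77. It was at 1996, 1724 and 1378 FPKM in buds, at 1461, 1560.3 and 1438 in partial blooming and at 1358, 1144 and 1929.7 in full blooming. It was at 2989.8, 3147 and 2558 FPKM in early senescence, above all earlier libraries, and at 337, 288 and 490.2 in late senescence, under all of them. Its level fell by 2.99 ± 0.23 (SE) on the log2 scale (limma adjusted p of 2.21e-06). The member in place 84 also lost most of its level there, from 2344 ± 38.4 to 353 ± 52.5 FPKM (SD, n = 3), after a rise from 468 ± 126 in buds to 2918 ± 1050.0 in full blooming.

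The largest called rise of this step, in place 78, was uneven and was first only with late senescence replicate 2 included. It was at 157, 353 and 597 FPKM in early senescence and at 1787, 7679 and 1709.6 in late senescence. A single library, late senescence replicate 2, was more than 4 times the others. The gain was 3.15 ± 0.71 (SE; limma adjusted p of 0.00624), and 2.44 without that library (limma adjusted p of 0.0286). The member in place 76 gained 2.49 ± 0.39 (SE; limma adjusted p of 0.000792), and 2.77 without that library. The rise in place 62 was even, to 6777, 6465 and 6659.7 FPKM in late senescence, a gain of 2.34 ± 0.27 (SE; limma adjusted p of 7.27e-05).

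No member was called at all 4 steps. Of the 100, 37 were called at none of the 4, 30 at 1, 25 at 2 and 8 at 3. These counts were made for members only, with no share over all genes tested beside them, so they show nothing particular to the members. Steps that share a stage share its libraries, so the counts are given side by side and not compared.

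The rule was also applied anew to 2 replicate numbers of each stage. The 100 genes chosen in this way, not all of them members, were read in the 5 libraries of the remaining number, which had no part in that choice. The members themselves were chosen from all libraries, those of each new choice included, so the number of members shared is largely built in. No label ties a library to a plant, so the libraries left out may not come from separate plants. With replicate 1 left out, 96 of the 100 genes chosen were members, and 85 were at or above the threshold of that choice (322 FPKM) in all 5 libraries left out. With replicate 2 left out, 95 were members and 77 were at or above the threshold (326 FPKM). With replicate 3 left out, 92 were members and 88 were at or above it (309 FPKM). The lowest value of a chosen gene in a library left out was 128 FPKM. Ranked by their lowest value in the libraries left out, 86, 80 and 85 of the chosen genes were again among the first 100 of all genes, and the last of them was in position 419.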

How the data were processed

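The authors deposited 1 table of FPKM values with 2 decimals, 1 column per library and 76388 identifiers, of which 3238 are listed at 0 in every library. The unit comes from the table's name, and its values are not whole. Tools listed without roles are DESeq 1.18.0, HTSeq 0.6.1, TopHat2 2.0.12 and Bowtie2 2.2.3, per the submitters' processing notes. What the reads were mapped to is not given in the sources used here. Columns were matched to the 15 libraries by the code in the labels. No 2 libraries held identical values. The p-values set differences between stages against how far these libraries differ within a stage. No label ties a library to a plant, so that spread may be technical. An exact 0 can be a failed estimate; no member was at 0.

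Stage means of FPKM gave the score and the 100 members. Tests used limma 3.58.1 in R 4.3.3 on log2(FPKM + 1) (a scale that understates changes of low genes), fitted to all 15 libraries with a mean-variance trend, over the 47326 genes at 1 FPKM or more in 3 or more libraries. They were two-sided, with Benjamini-Hochberg adjustment over all genes tested. The fit was tested on simulated data. The members and the choice of tests were set with earlier results of these data known. Identifiers are printed for the 3 highest scores, the 2 smallest spans, and the 2 largest rises and 2 largest falls from buds to late senescence among called members without overlap; 1 gene came under 2 of these. Members with the largest called change of each step are given by place. Other members described by place were picked after their values were seen. The alternatives tried were a pseudocount of 0.1, no filter or 1 at 5 FPKM, median-ratio and quantile scaling, a replicate block, fits on 2 stages, library quality weights, no trend, leaving out each library, and other rules of choice.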

Additional observations from a re-analysis of the deposited data

How the results depend on the processing

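Of 809 values recomputed under the alternatives, 737 stayed on their side of the threshold or within 1.5 times the count (1 SD for shares), 51 moved further and 21 calls of single members at a step no longer passed; no called change turned its direction. The uncalled changes from buds to late senescence of F01.PB979 and F01.PB2281 lay on both sides of 0 when 1 library was left out. Leaving out 2 libraries together, and leaving out libraries for shares and for the highest stage, were alternatives chosen after seeing the data. Causes of these shifts were not tested, except that choosing 50 or 200 genes changes a share by construction. On opening, 5 members fell without a filter, beside 3358 of 73150 genes tested, and 4 with quantile normalization, beside 3200 of 47326. With 1 library left out, 12 to 19 members rose, beside 2116 to 3854 of all genes tested. In the same fits 2 to 10 fell, beside 1575 to 6175. From partial to full blooming, 1 rose and 0 fell without a filter, beside 398 and 296 of 73150 genes tested. With median-ratio scaling 0 fell, beside 240 of 47326. At this step 24 rose and 9 fell with library quality weights, beside 2600 and 4495 of 47326 genes tested. In the fit on 2 stages 0 rose and 0 fell, beside 42 and 33 of 47326. Without bud replicate 2 and full blooming replicate 3 together, 11 members rose and 3 fell, beside 1156 and 1618 of 45991 genes tested. Leaving out 1 library gave 0 to 10 members that rose, beside 190 to 1120 of all genes tested. It gave 0 to 5 members that fell, beside 128 to 1746. At the onset of senescence, 8 rose without a filter, beside 4172 of 73150 genes tested. In the fit on 2 stages 6 rose and 11 fell, beside 3073 and 2010 of 47326. With library quality weights 37 fell, beside 5531 of 47326. Between early and late senescence, 15 rose with median-ratio scaling, beside 6725 of 47326 genes tested. Leaving out 1 library gave 9 to 17 members that fell, beside 3211 to 5305 of all genes tested. By median-ratio scaling 18 members were highest in early senescence; quantile normalization put 16 there and 19 in partial blooming; leaving out 1 library gave 16 to 33 for full blooming. The 5-stage test called 76 to 84 members without 1 library, beside 24330 to 30896 of all genes tested. It called 72 with median-ratio scaling, beside 27354 of 47326 genes tested, and 72 without a filter, beside 29037 of 73150. With library quality weights it called 90, beside 33774 of 47326. Over 25 alternatives, the member with the largest called rise or fall of a comparison was the same in 21 to 25, except from partial to full blooming (18 for the rise and 13 for the fall).

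With members chosen on median-ratio scaled values, 94 of the 100 remained and the share in buds was 15.03%. With stage medians 94 remained, with the lowest single library 89, and without 1 library 96 to 100. With 50 members the shares were 8.18%, 9.75%, 11.7%, 12.96% and 13.2% from buds to late senescence, and with 200 members 20.2%, 21.0%, 22.4%, 22.2% and 23.0%. With the replicate block, from partial to full blooming 2 members rose and 0 fell, beside 353 and 258 of 47326 genes tested. The block moved no other count of members by over 1.5 times. Libraries with the same replicate number did not deviate together: over 30 pairs of different stages, correlations across genes ran from -0.37 to 0.37, with a median of -0.02, against -0.41 to 0.43 over 60 pairs of different numbers. FPKM values give no read counts, so what depth limits cannot be stated.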

Other observations

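The identifiers of the members were unevenly spread over the numbers that end them. A number under 6000 was carried by 70 of the 100 members, against 7.85% of all genes listed and 9.78% of the genes tested. The share went down with the place in the score, from 70.0% among the members to 47.6% in the next 900 places, 18.2% in the 9000 after those and 5.82% in the rest. The limit of 6000 was picked after the identifiers were seen, and what the numbers stand for is not stated in the table. Consecutive numbers were found in 2 pairs of members.

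Genes that were among the 100 most abundant of 1 stage without being members were mostly at 1 FPKM or more in every stage mean. The bud stage had 54 such genes, partial and full blooming 48 and 50, and early and late senescence 57 and 52. The median of their own lowest stage mean was 101.5 FPKM for the bud genes, 87.6 and 111 FPKM for those of partial and full blooming, and 88.3 and 76.4 FPKM for those of early and late senescence. In the same order, a stage mean under 1 FPKM was found in 1, 2, 1, 1 and 0 of them.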
